A study of Homo sapiens with 9 samples.

Results

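Long non-coding RNAs (lncRNAs) are transcripts that are not translated into a known protein, and the 100 most abundant of them in MCF10A-YAP cells are described here. They were chosen by level alone: of 17348 genes annotated as lncRNA by GENCODE, these had the highest mean RPM over 9 libraries, where RPM is the reads of a gene per 1000000 reads of the library. The lowest members, HERC2P3 at rank 99 and DANCR at rank 100, averaged 17.4 and 17.3 RPM, and the next genes in the order, WARS2-AS1 and FAM86DP, averaged 17.3 and 17.2. The choice used the level over all 9 libraries and no contrast between groups, so the levels are a description and the differences between groups were open to a test.

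MCF10A is an immortalised, non-transformed breast epithelial line, and every library came from its derivative MCF10A-YAP, in which an always-active version of YAP, a coactivator of transcription, is overexpressed. The cells had been transduced with a CRISPR vector carrying a non-targeting single guide RNA (sgRNA) (control) or the sgRNA TRAM2-KO1 or TRAM2-KO2 against TRAM2, a component of the channel through which new proteins enter the endoplasmic reticulum. Antibiotic selection and growth to near confluence followed, and poly(A)+ RNA was sequenced from 3 libraries per group, lettered A to C. The question was which transcripts of YAP-driven cells change when TRAM2 is targeted.

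The labels name no clones, and beyond the words "biological replicates" nothing says how separate the cultures of a group were, so p-values cover the spread between these libraries. TRAM2 itself was lower with both sgRNAs. Its CPM (RPM scaled for library composition by the TMM method) were 481, 464 and 475 in the control, 219, 210 and 203 in TRAM2-KO1, and 216, 212 and 210 in the TRAM2-KO2 libraries, log2 fold changes of -1.17 and -1.16. Libraries held 21.7 to 27.6 M reads, lncRNAs took 1.05% to 1.13% of them, and the 100 members took 0.618% to 0.673%, which is 58.50% to 60.01% of all lncRNA reads. The markers of basal mammary epithelium summed to 2858 to 3477 RPM, although TP63, a defining member, was under 1 in every library. Markers of luminal hormone-sensing cells summed to 44.5 to 54.1, of leukocytes to 25.8 to 31.003 (with PTPRC and CD3E under 1), of fibroblasts to 1.42 to 2.17 and of endothelium, as far as analysed, to at most 0.113. Library TRAM2-KO1 B stood apart: it held the highest value of 21.9% and the lowest of 21.3% of all genes tested, and of 23 and 16 members. For each library, the deviation of a gene's log2 CPM from its mean over the 9 libraries was correlated with GC content across genes. The Spearman correlation was -0.529 in TRAM2-KO1 B. That correlation was -0.359 in TRAM2-KO1 C and 0.181 in TRAM2-KO1 A, between -0.091 and 0.396 in the TRAM2-KO2 libraries, and between 0.143 and 0.253 in the control libraries. Counts without each library are given beside the results.

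Some lncRNAs act as the RNA itself, such as nuclear RNAs that scaffold subnuclear bodies or bind splicing factors, and cytoplasmic RNAs that hold RNA-binding proteins or microRNAs. Others are carriers, whose introns or exons are cut into small nucleolar RNAs (snoRNAs, which guide the chemical modification of ribosomal RNA) or microRNAs (miRNAs, which repress messenger RNAs through their seed). A further group starts next to a protein-coding gene or runs opposite to it. Reads over a snoRNA or miRNA host measure the poly(A)+ host transcript and not the small RNA it carries.

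Mature sequences show what the abundant miRNA hosts carry. Of the 100 members, 73 were matched to RefSeq by symbol, and 12 of them spanned 18 miRNA genes, by position and without regard to strand. From these hosts, PVT1 and NEAT1 apart, 22 mature miRNAs were read, no pair of which shared a seed. Mature forms of the miRNA genes in PVT1 and NEAT1 were not among those read, so their seeds were not compared. The sequences below are from RefSeq on GRCh38.p14, read 5′ to 3′, with the seed (bases 2 to 8) in capitals. Shown are mature miRNAs of 6 of the hosts, as examples of the target-recognition sequences that lie within the spans of these genes. Whether they lie in exons or introns was not read.
hsa-miR-205-5p (MIR205HG, chr1:209432166-209432187, plus strand): uCCUUCAUuccaccggagucug
hsa-miR-22-3p (MIR22HG, chr17:1713914-1713935, minus strand): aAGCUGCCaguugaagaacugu
hsa-miR-675-5p (H19, chr11:1996800-1996822, minus strand): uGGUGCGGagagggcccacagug
hsa-miR-503-5p (MIR503HG, chrX:134546371-134546393, minus strand): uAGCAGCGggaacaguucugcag
hsa-miR-100-5p (MIR100HG, chr11:122152275-122152296, minus strand): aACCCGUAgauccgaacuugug
hsa-let-7a-5p (MIR100HG, chr11:122146568-122146589, minus strand): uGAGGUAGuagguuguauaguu
hsa-miR-125b-5p (MIR100HG, chr11:122099809-122099830, minus strand): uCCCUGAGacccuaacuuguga
hsa-miR-770-5p (MEG3, chr14:100852409-100852431, plus strand): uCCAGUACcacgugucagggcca

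For the snoRNA hosts the start of the transcript is the informative stretch. Many transcripts whose translation follows growth signals, ribosomal protein and snoRNA host transcripts among them, begin with a C followed by further pyrimidines, the 5′ terminal oligopyrimidine tract. By RefSeq, 16 members spanned 53 snoRNA genes, and 14 of them had an entry among the promoter sequences. A start base C followed by C or T to a run of at least 5 was found at 5 of these 14, which were also the only such starts among the 49 members with a promoter entry. Of all 35116 promoters, 4.07% had such a start. Only the annotated start base and the gene strand were read, so the match is a description of the letters. The lines give 40 bases before and 30 from the start base on GRCh38.p14, with the run in capitals. They are the 5 matching starts, then SNHG1, whose run was of 3, and GAS5, whose annotated start held none.
SNHG4 (chr5:139274061-139274130, plus strand): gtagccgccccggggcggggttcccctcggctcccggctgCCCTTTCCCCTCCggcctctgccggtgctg
SNHG12 (chr1:28581844-28581913, minus strand): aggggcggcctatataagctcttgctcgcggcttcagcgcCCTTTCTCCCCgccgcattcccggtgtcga
SNHG32 (chr6:31834876-31834945, plus strand): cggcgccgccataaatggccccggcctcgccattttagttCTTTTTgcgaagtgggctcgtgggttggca
SNHG5 (chr6:85678704-85678773, minus strand): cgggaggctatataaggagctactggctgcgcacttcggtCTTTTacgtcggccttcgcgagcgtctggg
ZFAS1 (chr20:49278602-49278671, plus strand): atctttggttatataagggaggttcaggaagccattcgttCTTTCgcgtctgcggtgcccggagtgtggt
SNHG1 (chr11:62855856-62855925, minus strand): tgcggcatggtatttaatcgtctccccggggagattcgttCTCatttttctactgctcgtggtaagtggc
GAS5 (chr1:173869016-173869085, minus strand): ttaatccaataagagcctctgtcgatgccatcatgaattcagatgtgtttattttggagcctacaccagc

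NORAD, a cytoplasmic RNA that binds Pumilio proteins, was the most abundant member and took 9.67% to 11.6% of the members' reads. It is a single exon of 5401 bases on the minus strand (GRCh37, chr20:34633540-34638940). Its CPM were 667, 655 and 670 in the control, 665, 711 and 670 in TRAM2-KO1, and 687, 729 and 718 in the TRAM2-KO2 libraries. The TRAM2-KO2 libraries were all above the control and those of TRAM2-KO1 overlapped it. The log2 fold change was 0.04 in TRAM2-KO1 (adjusted p = 0.592) and 0.10 in TRAM2-KO2 (adjusted p = 0.166; edgeR's quasi-likelihood test, adjusted over all 15139 genes tested, as everywhere below). The 10 highest members held 45.005% to 49.11% of the members' reads.

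**Figure D1:**
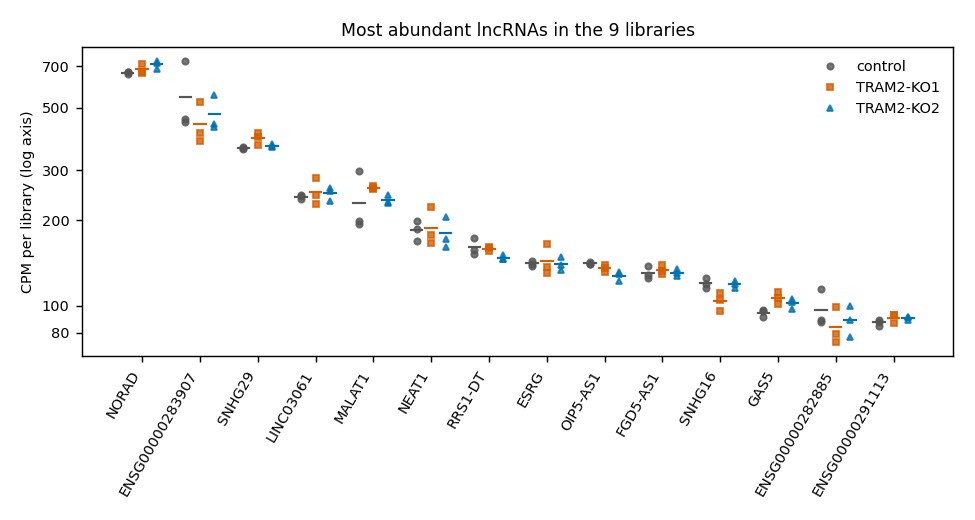
TMM-scaled CPM (log axis) of 14 of the most abundant members in each of the 9 libraries, coloured by group, with a bar for each group mean. NORAD lies between 655 and 729 in all libraries, and MALAT1 and ENSG00000283907 each have their highest value in control C.

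ENSG00000283907 came next, a gene without a symbol of 1 transcript of 494 bases whose span runs opposite to ATP4A (GRCh37, chr19:36048830-36072862, plus strand). Its CPM were 443, 456 and 731 in the control, 406, 381 and 522 in TRAM2-KO1, and 555, 428 and 438 in the TRAM2-KO2 libraries. Control C was the highest library and the groups overlapped, with log2 fold changes of -0.32 (adjusted p = 0.404) and -0.20 (adjusted p = 0.737).

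MALAT1, a nuclear RNA of splicing speckles (GRCh37, chr11:65265111-65275544, plus strand), showed how 1 library can set a comparison. Its CPM were 194, 198 and 299 in the control, 259, 263 and 260 in TRAM2-KO1, and 230, 232 and 246 in the TRAM2-KO2 libraries. Control A and B were below all 6 knockout libraries, and control C was above them. The log2 fold changes over all libraries were 0.18 (adjusted p = 0.512) and 0.03 (adjusted p = 0.961). Without control C they were 0.40 (adjusted p = 0.00102) and 0.27 (adjusted p = 0.00756), and without control A or B the value for TRAM2-KO2 was -0.08 or -0.07.

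NEAT1, the scaffold of paraspeckles, lies beside MALAT1 (GRCh37, chr11:65190245-65213011, plus strand). Its CPM were 169, 187 and 198 in the control, 222, 177 and 166 in TRAM2-KO1, and 206, 162 and 172 in the TRAM2-KO2 libraries. The groups overlapped, and neither sgRNA gave a change past the test (log2 fold changes 0.03, adjusted p = 0.913, and -0.04, adjusted p = 0.946). Of its reads, 5.49% to 17.8% were assigned to the long form NEAT1-202 of 22743 bases, which alone builds paraspeckles. That share was 5.80% to 17.8% over the control libraries, 6.22% to 15.1% over those of TRAM2-KO1 and 5.49% to 15.3% over those of TRAM2-KO2. The short forms NEAT1-201 and NEAT1-207 overlap the long one, so these shares rest on how Salmon divided reads.

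Levels per transcript length ordered the members differently. By TPM, which divides reads by transcript length before scaling, the highest mean over 9 libraries was that of ENSG00000283907 at 2188, followed by the snoRNA hosts SNHG29 at 520, SNHG6 at 381, ZFAS1 at 266, SNHG5 at 259 and GAS5 at 189, and NORAD stood at 147. The control libraries gave 2455 ± 760 (SD, n = 3) TPM for ENSG00000283907, 500 ± 1.36 for SNHG29, 363 ± 4.50 for SNHG6, 254 ± 4.96 for ZFAS1, 247 ± 11.6 for SNHG5, 181 ± 9.08 for GAS5 and 142 ± 2.65 for NORAD. ZFAS1 and SNHG5 lay within their SD of each other, and the other neighbours in this order lay further apart than their SDs. HELLPAR, a single transcript of 205012 bases, showed the other extreme at 0.0988 TPM. Ranking by TPM kept 68 of the 100 members.

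Over all members the mean CPM ran from 17.6 to 686 with a median of 35.2, and 24 members had no gene symbol. By the GENCODE annotation each member was placed in the first class that applied, in the order given here. Of the members, 10 spanned a snoRNA gene and 10 a miRNA gene on their own strand. A further 15 started within 1 kb of a coding gene on the other strand, 19 overlapped a coding gene on the other strand, and 46 were none of these. A member such as GAS5 fits several classes but is counted in the first. RefSeq gave 16 snoRNA hosts and 12 miRNA hosts, among them SNHG5 and H19, which GENCODE left in the last class. These classes held 7.42%, 7.62%, 10.3%, 24.7% and 49.96% of the members' reads.

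**Figure D2:**
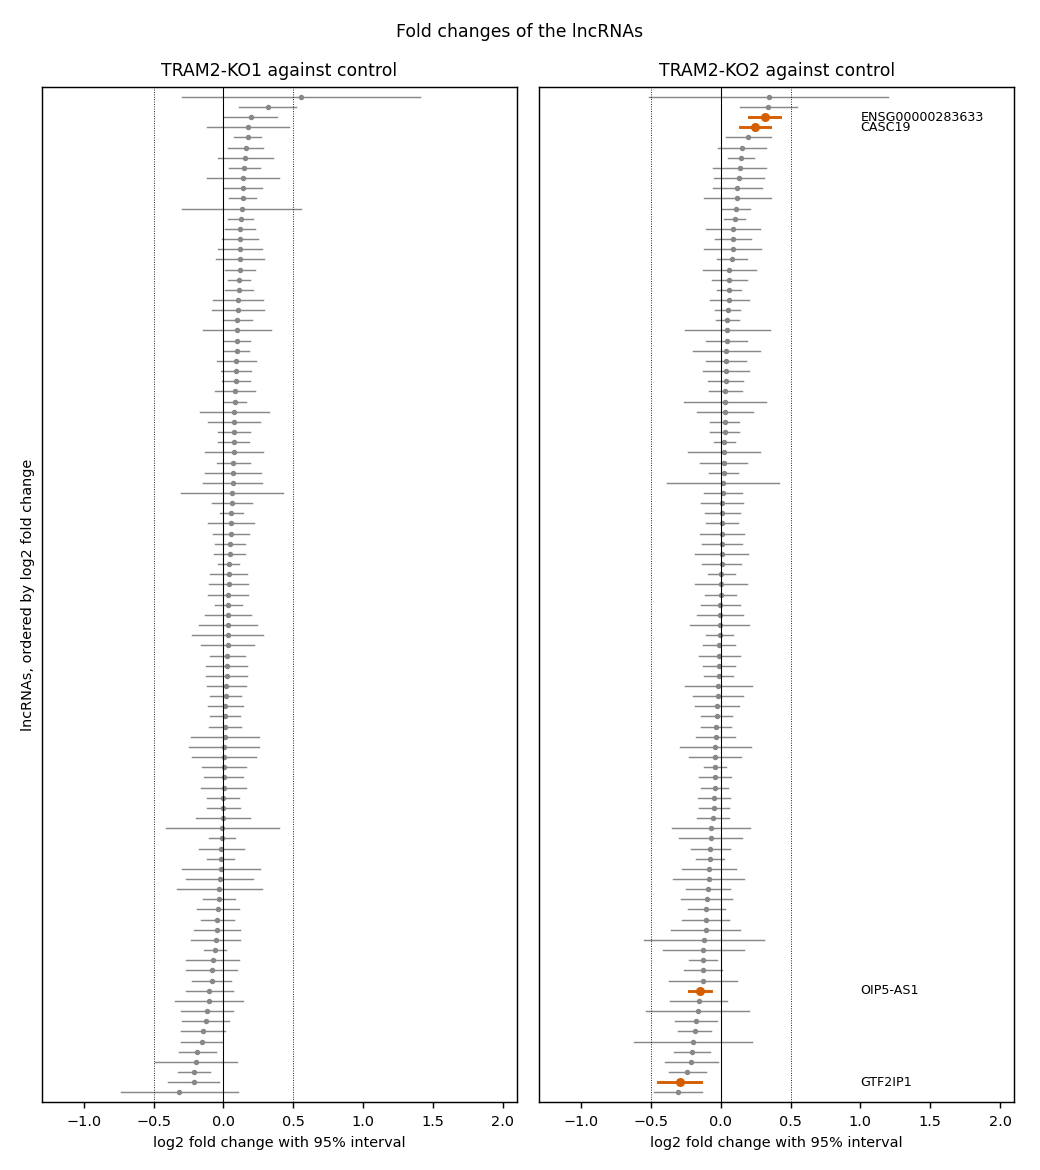
Log2 fold change of the members (XIST is not drawn) in TRAM2-KO1 and TRAM2-KO2 against the same control libraries, with 95% intervals, in order of size. Dotted lines stand at 0.5 on either side of 0. Orange marks the members past the test, of which there were 0 in TRAM2-KO1 and 4 in TRAM2-KO2.

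Lower TRAM2 RNA, at 0.445 times the control in TRAM2-KO1 and 0.449 times in TRAM2-KO2, went with small differences in these lncRNAs. The comparisons therefore concern a partial reduction of TRAM2 RNA. In TRAM2-KO1 none of the 100 members rose and none fell at an adjusted p under 0.05 by edgeR's test. Over all genes tested 2.91% passed in TRAM2-KO1, 0.753% higher and 2.15% lower. At an unadjusted p under 0.05 there were 19 members, against 18.5% of all genes, and DESeq2 gave 2 members past its adjusted threshold, GAS5 higher and SNHG16 lower. Without TRAM2-KO1 A the count was 5, without control C it was 1, and it was 0 without any other library. It was 4 with each library's GC trend taken out and 3 without the filter on low counts. The median log2 fold change of the members was 0.036, beside 0.0051 for all genes, with 70 members above 0.

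In TRAM2-KO2 the lncRNAs ENSG00000283633 and CASC19 rose and OIP5-AS1 and GTF2IP1 fell. All genes tested gave 4.22% past the test, 1.73% higher and 2.49% lower, so the members' 4 of 100 was near that share. Unadjusted, 16 members passed, against 15% of all genes. The count of 4 fell to 1 without control A or B, and to 2 without TRAM2-KO1 C or any TRAM2-KO2 library, and was 7 without TRAM2-KO1 A. It was 9 with the GC trend removed and 1, ENSG00000283633, with offsets for transcript length. The median was -0.0010, beside -0.0032 for all genes, with 49 members above 0.

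For the mean of both sgRNAs against the control, ENSG00000283633 and CASC19 were higher, where all genes tested gave 3.84% past the test (1.33% higher, 2.51% lower). Unadjusted, 16 members passed, beside 14.8% of all genes. This count of 2 was 6 without TRAM2-KO1 A, 1 without control C, TRAM2-KO1 B or TRAM2-KO2 B, and 0 without any of the others. It was 5 with the GC trend removed, 4 under either other filter on low counts and 0 with length offsets. Comparing TRAM2-KO2 with TRAM2-KO1 directly, ENSG00000283633 was higher and LNCOG lower, with 2.27% of all genes past the test (1.41% higher, 0.865% lower). Here 22 members passed unadjusted, beside 19.8%, and the count of 2 was 9 without TRAM2-KO1 A, 1 without TRAM2-KO1 C or any control library and 0 without the others. It was 4 with the GC trend removed, 4 with DESeq2 or without the filter and 0 with length offsets.

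No member passed with a log2 fold change beyond 0.5 in any of these comparisons, where all genes tested gave 0.482% for TRAM2-KO1, 0.647% for TRAM2-KO2, 0.396% for the mean of both and 0.476% between the sgRNAs. The 95% interval lay wholly within 0.5 of no change for 96 members in TRAM2-KO1 and 95 in TRAM2-KO2. It lay within 0.25 for 58 and 57. The 1806 other lncRNA genes tested were measured less closely, with a median half-width of the interval of 0.61 against 0.15 for the members, and 1 of them passed in TRAM2-KO1 and 10 in TRAM2-KO2. The 3 libraries of a group did not overlap those of the control for 21 members in TRAM2-KO1 (16 higher, 5 lower) and 17 in TRAM2-KO2 (7 higher, 10 lower), where all genes gave 23% and 23.6%. Between the sgRNAs 23 members did not overlap, 4 higher and 19 lower in TRAM2-KO2, beside 21.4% of all genes. Both sgRNAs were set against the same 3 control libraries, so their values are not independent. In bulk RNA, fewer cells expressing a transcript and less of it per cell cannot be told apart.

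**Figure D3:**
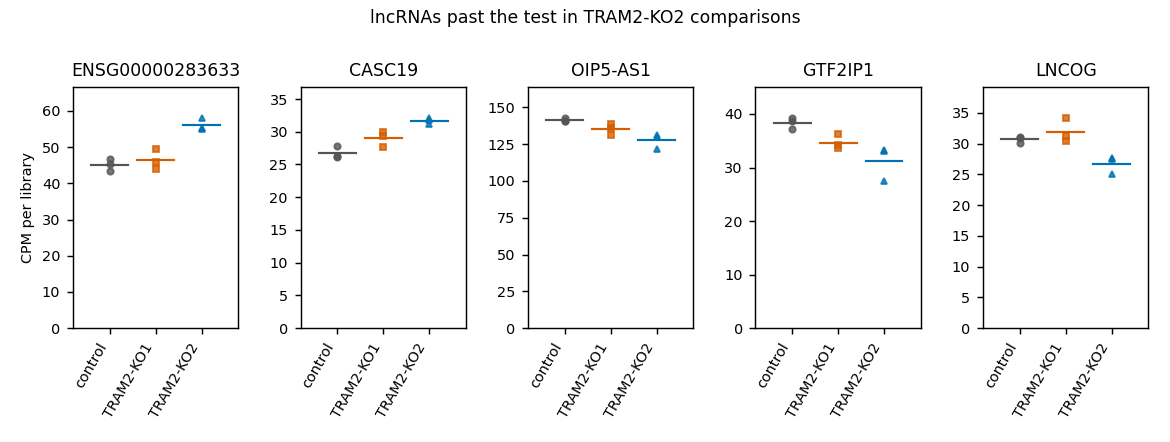
TMM-scaled CPM of the 5 members past the test in TRAM2-KO2 against the control or against TRAM2-KO1, with each library as a point and a bar for the group mean of 3 libraries. ENSG00000283633 lies between 55.1 and 58.0 in TRAM2-KO2 and between 43.3 and 49.4 in the other libraries.

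ENSG00000283633 carried the clearest difference. It is a gene without a symbol on chromosome 22 (GRCh37, chr22:17082801-17096001, plus strand). Its CPM were 43.3, 45.3 and 46.8 in the control, 45.9, 44.1 and 49.4 in TRAM2-KO1, and 55.3, 55.1 and 58.0 in the TRAM2-KO2 libraries. All TRAM2-KO2 libraries were above the other 6, and TRAM2-KO1 overlapped the control. The log2 fold change was 0.32 (SE 0.0495, adjusted p = 0.00481) in TRAM2-KO2, 0.04 (adjusted p = 0.692) in TRAM2-KO1 and 0.27 (SE 0.0494, adjusted p = 0.022) between the sgRNAs. For the mean of both it was 0.18 (adjusted p = 0.0497).

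The transcripts of ENSG00000283633 also took different shares. The leading transcript, ENST00000592918 of 1576 bases, held 58.4% to 64.1% of its reads in the control, 59.6% to 62.1% in TRAM2-KO1 and 41.5% to 49.5% in TRAM2-KO2. The transcript ENST00000592107 of 1019 bases held 10.2% to 16.4%, 13.0% to 16.1% and 21.6% to 27.2%. Of the 31-base windows of the leading transcript, 66.8% occurred in another gene, and 40.04% occurred in TPTEP1, an lncRNA looked up because of this sharing and so after the values were seen. TPTEP1 had CPM of 6.86, 7.42 and 8.56 in the control, 7.995, 7.62 and 7.78 in TRAM2-KO1, and 5.94, 5.73 and 5.87 in the TRAM2-KO2 libraries, and it fell in TRAM2-KO2 by 0.38 on the log2 scale (adjusted p = 0.0457). How far the division of shared reads entered either value was not tested.

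CASC19, an lncRNA of the gene-poor region upstream of MYC, lies on the minus strand (GRCh37, chr8:128084939-128239786). Its CPM were 26.3, 26.1 and 27.8 in the control, 27.6, 29.3 and 29.97 in TRAM2-KO1, and 32.1, 31.9 and 31.1 in the TRAM2-KO2 libraries. The TRAM2-KO2 libraries were all above the rest, and the lowest TRAM2-KO1 library lay below control C. The log2 fold change was 0.25 (SE 0.0479, adjusted p = 0.0171) in TRAM2-KO2 and 0.12 (adjusted p = 0.24) in TRAM2-KO1. Only 1.44% of the windows of its leading transcript occurred elsewhere. The call was lost without control A, control B, TRAM2-KO2 A or TRAM2-KO2 B, and with length offsets the value was 0.08 (adjusted p = 0.955). PVT1, another lncRNA near MYC, had log2 fold changes of 0.04 (adjusted p = 0.811) and -0.0017 (adjusted p = 0.996).

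OIP5-AS1, which sponges RNA-binding proteins such as HuR, runs opposite to OIP5 (GRCh37, chr15:41576156-41614590, plus strand). Its CPM were 141, 141 and 143 in the control, 131, 139 and 136 in TRAM2-KO1, and 122, 131 and 130 in the TRAM2-KO2 libraries. All knockout libraries were below the control. Its log2 fold change was -0.15 (SE 0.0357, adjusted p = 0.0454) in TRAM2-KO2 and -0.06 (adjusted p = 0.397) in TRAM2-KO1. It passed in only 2 of the 9 fits that left out a library, without TRAM2-KO1 A or TRAM2-KO1 B, and with length offsets its value was -0.07 (adjusted p = 0.702). OIP5, its coding partner, had log2 fold changes of -0.09 (adjusted p = 0.542) and 0.08 (adjusted p = 0.706), and reads where both overlap cannot be told apart unless strand was used in counting, which was not stated.

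GTF2IP1 is a pseudogene transcript of GTF2I, the gene of a general transcription factor (GRCh37, chr7:74601106-74653445, minus strand). Its CPM were 39.2, 38.6 and 37.2 in the control, 36.2, 33.6 and 34.1 in TRAM2-KO1, and 33.0, 27.4 and 33.3 in the TRAM2-KO2 libraries. Both knockout groups were below the control throughout. Its log2 fold change was -0.29 (SE 0.0706, adjusted p = 0.0443) in TRAM2-KO2 and -0.15 (adjusted p = 0.301) in TRAM2-KO1, and it passed in 1 of the 9 fits that left out a library, without TRAM2-KO1 A. With length offsets it was -0.41 (adjusted p = 0.194) in TRAM2-KO2. The value is uncertain because 97.0% of its windows occurred in another gene, 89.7% in GTF2IP4. GTF2IP4 and GTF2I, chosen after the values were seen, had log2 fold changes in TRAM2-KO2 of 0.25 (adjusted p = 0.222) and -0.02 (adjusted p = 0.905).

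LNCOG differed between the sgRNAs (GRCh37, chr12:76653616-76699749, plus strand). Its CPM were 30.9, 31.2 and 30.1 in the control, 31.2, 34.1 and 30.4 in TRAM2-KO1, and 27.4, 27.6 and 24.98 in the TRAM2-KO2 libraries. TRAM2-KO2 was below both other groups, which overlapped. The log2 difference between the sgRNAs was -0.26 (SE 0.0577, adjusted p = 0.0489), and against the control the values were -0.20 (adjusted p = 0.0902) in TRAM2-KO2 and 0.05 (adjusted p = 0.666) in TRAM2-KO1. The difference passed in 1 of the 9 fits that left out a library, without TRAM2-KO1 A, and was -0.24 (adjusted p = 0.218) with length offsets. It shared 5.29% of its windows with other genes.

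**Figure D4:**
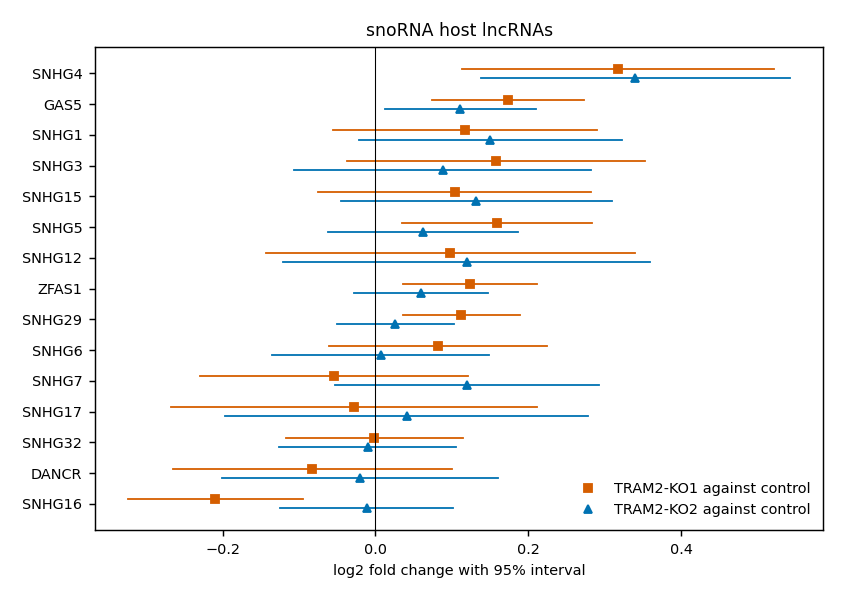
Log2 fold change of the 15 listed snoRNA host members in TRAM2-KO1 (squares) and TRAM2-KO2 (triangles) against the same control libraries, with 95% intervals. SNHG4 has the highest values, 0.32 and 0.34, and SNHG16 the lowest in TRAM2-KO1, -0.21.

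No listed snoRNA host passed the test with either sgRNA. Of 30 listed hosts tested, 15 were members. None of the 30 rose or fell with either sgRNA, beside 2.91% of all genes tested in TRAM2-KO1 and 4.22% in TRAM2-KO2. A list of this size cannot tell such a count from those shares. The members' median log2 fold change was 0.10 in TRAM2-KO1, with 10 of 15 above 0, and 0.062 in TRAM2-KO2, with 12 of 15 above 0, both from the same control libraries. Of all 100 members 70 and 49 were above 0, and of all 15139 genes tested 7783 and 7381.

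SNHG4 holds SNORA74A and overlaps MATR3 on its own strand and SIL1 on the other (GRCh37, chr5:138609791-138620588, plus strand). It had the largest values among the listed snoRNA hosts that are members. Over all listed hosts tested the highest log2 fold changes were 0.59 in TRAM2-KO1 and 0.76 in TRAM2-KO2, neither past the test. For SNHG4 the libraries were as follows. Its CPM were 17.7, 18.6 and 17.4 in the control, 24.2, 21.9 and 20.6 in TRAM2-KO1, and 25.4, 19.8 and 22.6 in the TRAM2-KO2 libraries. Every knockout library was above every control library. In TRAM2-KO1 the log2 fold change was 0.32 (SE 0.0919, adjusted p = 0.107), in TRAM2-KO2 it was 0.34 (SE 0.0914, adjusted p = 0.0737), and for the mean of both it was 0.33 (adjusted p = 0.0512). With offsets for transcript length they were 0.13 and 0.03 for the single sgRNAs. SNHG4 passed in 1 of 17 alternatives in TRAM2-KO1, 5 in TRAM2-KO2 and 7 for the mean of both (adjusted p 0.00576 to 0.768).

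GAS5, a growth-arrest transcript that carries 11 snoRNA genes, had CPM of 95.5, 96.2 and 91.3 in the control, 106, 112 and 101 in TRAM2-KO1, and 106, 97.3 and 103 in the TRAM2-KO2 libraries. All knockout libraries were above the control, with log2 fold changes of 0.17 (SE 0.0447, adjusted p = 0.0739) and 0.11 (adjusted p = 0.262). SNHG29, which carries 3 snoRNA genes, had CPM of 364, 357 and 359 in the control, 369, 406 and 393 in TRAM2-KO1, and 372, 365 and 363 in the TRAM2-KO2 libraries. Its TRAM2-KO1 libraries were above the control (log2 fold change 0.11, adjusted p = 0.125) and those of TRAM2-KO2 overlapped it.

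ZFAS1, the host of the SNORD12 genes, had CPM of 77.4, 78.3 and 74.1 in the control, 81.8, 84.8 and 83.9 in TRAM2-KO1, and 79.7, 76.4 and 83.3 in the TRAM2-KO2 libraries. The log2 fold change was 0.12 (adjusted p = 0.142) in TRAM2-KO1, where the libraries did not overlap the control, and 0.06 (adjusted p = 0.564) in TRAM2-KO2. Both starts with the shortest matching run, those of ZFAS1 and SNHG5, belonged to hosts of similar level, and SNHG5 had log2 fold changes of 0.16 (adjusted p = 0.173) and 0.06 (adjusted p = 0.717). SNHG12 and SNHG32, the other hosts with a matching start, had values of 0.10 (adjusted p = 0.678) and -0.0017 (adjusted p = 0.993) in TRAM2-KO1 and of 0.12 (adjusted p = 0.717) and -0.01 (adjusted p = 0.969) in TRAM2-KO2.

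SNHG16 lay the other way in TRAM2-KO1. Its CPM were 125, 119 and 115 in the control, 110, 104 and 96.0 in TRAM2-KO1, and 115, 122 and 119 in the TRAM2-KO2 libraries. The TRAM2-KO1 libraries were below all others, while TRAM2-KO2 and control overlapped. The log2 fold change was -0.21 (SE 0.0515, adjusted p = 0.0621) in TRAM2-KO1 and -0.01 (adjusted p = 0.963) in TRAM2-KO2. The difference between the sgRNAs was 0.20 (adjusted p = 0.0794). The values of SNHG16 are uncertain, because 66.85% of the windows of its leading transcript occurred in the coding gene ENSG00000284526. That transcript held 46.1% to 56.4% of SNHG16 reads in the control, 44.1% to 64.9% in TRAM2-KO1 and 45.9% to 58.6% in TRAM2-KO2. How far the division of shared reads entered these values was not tested.

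None of the 28 miRNA host lncRNAs tested from the list passed with either sgRNA. Over all genes tested 2.91% passed in TRAM2-KO1 and 4.22% in TRAM2-KO2. A list of this size cannot tell such a count from those shares. Of the 28 hosts, 6 were members, with a median log2 fold change of 0.042 in TRAM2-KO1 and 0.042 in TRAM2-KO2. MIR205HG, whose miR-205-5p is a marker of basal epithelium, had CPM of 67.5, 69.6 and 61.4 in the control, 61.4, 61.0 and 56.1 in TRAM2-KO1, and 74.1, 63.7 and 66.1 in the TRAM2-KO2 libraries. The TRAM2-KO1 libraries were at or below the lowest control library, with a log2 fold change of -0.15 (adjusted p = 0.248), against 0.04 (adjusted p = 0.883) in TRAM2-KO2. Of the 6 basal markers tested, 1 fell in TRAM2-KO1 and 3 rose in TRAM2-KO2; their part in these values was not tested.

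H19, an imprinted transcript that carries miR-675, had CPM of 36.7, 38.4 and 35.8 in the control, 41.6, 33.7 and 35.5 in TRAM2-KO1, and 43.6, 43.5 and 40.1 in the TRAM2-KO2 libraries. The TRAM2-KO2 libraries were above the control and TRAM2-KO1 spanned it. H19 had a log2 fold change of 0.20 (adjusted p = 0.207) in TRAM2-KO2 and of 0.0021 (adjusted p = 0.995) in TRAM2-KO1. MEG3, imprinted like H19 and a nuclear RNA, had CPM of 80.0, 86.7 and 76.2 in the control, 104, 76.3 and 72.5 in TRAM2-KO1, and 92.0, 60.1 and 64.4 in the TRAM2-KO2 libraries. In both knockout groups library A was the highest, and the log2 fold changes were 0.06 (adjusted p = 0.874) and -0.17 (adjusted p = 0.754).

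MIR22HG, the stress-responsive host of miR-22, had CPM of 46.6, 44.2 and 40.4 in the control, 52.3, 52.3 and 45.7 in TRAM2-KO1, and 54.1, 43.97 and 46.1 in the TRAM2-KO2 libraries. The groups overlapped, with log2 fold changes of 0.20 (adjusted p = 0.254) and 0.14 (adjusted p = 0.532). MIR100HG, which spans the genes of miR-100, let-7a and miR-125b, had log2 fold changes of 0.09 (adjusted p = 0.365) and -0.04 (adjusted p = 0.838), and MIR503HG had -0.03 (adjusted p = 0.93) and 0.05 (adjusted p = 0.945). MIR4435-2HG, known from epithelial to mesenchymal transition (EMT), had log2 fold changes of 0.08 (adjusted p = 0.266) and -0.04 (adjusted p = 0.718). MIR4435-2HG shares 89.9% of its windows with other genes, above all CYTOR, itself a member with 0.10 (adjusted p = 0.282) and 0.03 (adjusted p = 0.883), so the values of both are uncertain.

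The other lists of lncRNAs gave the same count of calls, 0 in TRAM2-KO1 and, OIP5-AS1 apart, 0 in TRAM2-KO2. All genes tested gave 2.91% and 4.22%, and lists of 5 to 15 genes are too short to tell a count from those shares. For the nuclear lncRNAs (6 members of 10 tested) the members' medians were 0.033 and -0.043. They were 0.088 and 0.033 for EMT and TGF-beta signalling (7 of 15), 0.037 and 0.049 for lncRNAs induced by p53 (4 of 8), and 0.056 and 0.089 for proliferation and MYC (6 of 12). They were 0.11 and 0.049 for inflammation and stress (2 of 7), -0.031 and 0.0092 for keratinocyte and squamous lncRNAs (4 of 5), and 0.033 and 0.017 for imprinted lncRNAs (2 of 6).

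UCA1, an lncRNA high in squamous and bladder epithelium, had CPM of 54.7, 53.7 and 53.5 in the control, 56.4, 56.4 and 59.9 in TRAM2-KO1, and 55.04, 54.3 and 58.2 in the TRAM2-KO2 libraries. TRAM2-KO1 lay above the control and TRAM2-KO2 overlapped it, with log2 fold changes of 0.09 (adjusted p = 0.248) and 0.05 (adjusted p = 0.653). LINC01133 and DANCR, the latter an RNA that holds epidermal progenitors undifferentiated, had 0.02 (adjusted p = 0.895) and -0.08 (adjusted p = 0.639) in TRAM2-KO1 and -0.04 (adjusted p = 0.881) and -0.02 (adjusted p = 0.961) in TRAM2-KO2. LINC00511 and the host SNHG15 of the proliferation list had 0.07 (adjusted p = 0.459) and 0.10 (adjusted p = 0.53) in TRAM2-KO1 and 0.08 (adjusted p = 0.529) and 0.13 (adjusted p = 0.518) in TRAM2-KO2. JPX, an X-linked activator of XIST, had 0.01 (adjusted p = 0.914) and -0.05 (adjusted p = 0.763), and XIST, itself a member, was counted throughout, but its values are not given. The values of JPX are uncertain, because 91.25% of the windows of its leading transcript occurred in other genes, mostly in FTX.

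Among the 12 most abundant members, LINC03061 ranged from 229 to 281 CPM, RRS1-DT from 146 to 173, ESRG from 130 to 165 and FGD5-AS1 from 125 to 139. The TRAM2-KO2 libraries of RRS1-DT were below the control (log2 fold change -0.13, adjusted p = 0.183), and the groups of the other 3 overlapped.

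Members were compared with a paired coding gene. It was the gene named in the member's symbol or, failing that, the one with the nearest start within 1 kb on the other strand. A pair named by symbol need not lie opposite or start side by side, as for MUC20-OT1 and IGFL2-AS1. Of 23 pairs, 20 had a tested partner. Across those 20 pairs, which share libraries, Pearson's r between the log2 fold changes was 0.251 in TRAM2-KO1 and -0.092 in TRAM2-KO2 (Spearman's rho 0.349 and -0.093). POFUT2, which adds fucose to secreted proteins and starts head to head with LINC00205, was the only partner that passed against the control. Its CPM were 40.6, 44.2 and 41.1 in the control, 36.5, 30.99 and 33.2 in TRAM2-KO1, and 35.5, 34.2 and 33.2 in the TRAM2-KO2 libraries, so all knockout libraries were lower. It fell with both sgRNAs, by 0.32 (adjusted p = 0.0209) and 0.29 (adjusted p = 0.0269) on the log2 scale, while LINC00205 had -0.13 (adjusted p = 0.399) and -0.11 (adjusted p = 0.593). RRS1, the ribosome biogenesis factor beside RRS1-DT, was higher in TRAM2-KO2 than in TRAM2-KO1 by 0.22 (adjusted p = 0.0281), and RRS1-DT had -0.11 (adjusted p = 0.217) in that comparison.

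**Figure D5:**
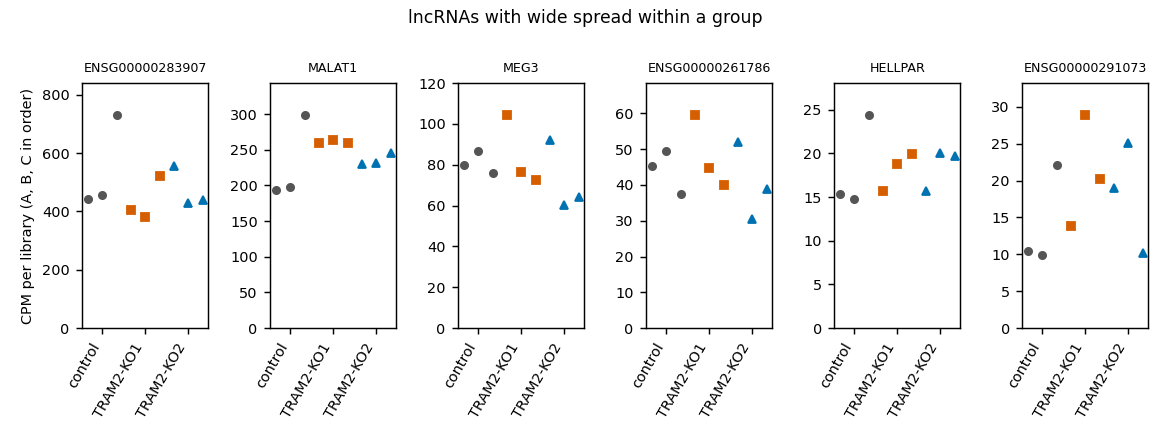
TMM-scaled CPM of the 6 members whose coefficient of variation exceeded 20% in at least 1 group, with the libraries A, B and C of each group in order. ENSG00000291073 runs from 9.96 to 28.9 CPM across the libraries.

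Libraries of the same group differed little for most members. The median coefficient of variation (CV) was 4.27% in the control, 6.96% in TRAM2-KO1 and 5.17% in TRAM2-KO2, beside 4.67%, 6.98% and 5.49% for all genes tested and 17.0%, 18.7% and 17.9% for the other lncRNAs tested. ENSG00000283907, MALAT1, MEG3, ENSG00000261786, HELLPAR and ENSG00000291073 exceeded 20% in a group, and were chosen for that after their values were seen.

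ENSG00000291073 had CPM of 10.5, 9.96 and 22.1 in the control, 13.9, 28.9 and 20.2 in TRAM2-KO1, and 19.01, 25.03 and 10.1 in the TRAM2-KO2 libraries. The groups overlapped almost wholly, and the largest fold change of any member in TRAM2-KO1, 0.55, had an interval of -0.30 to 1.41. HELLPAR had CPM of 15.4, 14.8 and 24.4 in the control, 15.7, 18.8 and 19.9 in TRAM2-KO1, and 15.6, 20.01 and 19.7 in the TRAM2-KO2 libraries. Control C was again the highest library of HELLPAR, as for MALAT1 and ENSG00000283907.

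Sequence shared with other genes marks where the division of reads could enter a level. Of the 100 members, 34 shared at least 50% of the 31-base windows of their leading transcript with another gene and 39 shared under 10%, with a median of 20.2%. In the first set 1 of 34 members rose and 1 fell in TRAM2-KO2, and in the second 1 of 39 rose. Over all genes tested 4.22% passed in TRAM2-KO2, and counts this small cannot tell the sets from that share or from each other. Neither set held a member past the test in TRAM2-KO1, where 2.91% of all genes passed. ENSG00000291003, chosen after its values were seen, shared 95.4% of its windows, mostly with HERC2P2. Its CPM were 42.9, 39.6 and 42.9 in the control, 43.3, 37.9 and 35.7 in TRAM2-KO1, and 36.7, 31.99 and 32.6 in the TRAM2-KO2 libraries, lower than the control in every TRAM2-KO2 library (log2 fold change -0.31, adjusted p = 0.0537).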

How the data were processed

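Poly(A)+ RNA was sequenced in 9 TruSeq libraries, 3 per group, grouped by the sample labels. The labels name a TruSeq RNA kit without calling it stranded, and the study's methods a stranded TruSeq kit. The series design text names other conditions, which conflict with these labels. Per the labels and methods, the authors trimmed reads with cutadapt and quantified transcripts with Salmon, and their versions, the transcript release, the genome build and the strand setting were not given in the sources used here. Salmon's estimated counts, as deposited by the authors, were summed per gene and rounded, and the deposited TPM (reads per transcript length, scaled to a fixed total, by the authors) were summed per gene to compare levels between genes. Of 226030 transcripts, 220336 (97.5%) were matched to 59294 genes of GENCODE release 44 on GRCh37.

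Genes were filtered by filterByExpr (minimum 10 reads), leaving 15139, and scaled by TMM. All 9 libraries entered 1 edgeR 4.0.16 quasi-likelihood fit (R 4.3.3, limma 3.58.1), with Benjamini-Hochberg adjustment over all genes tested. Rose or fell means an adjusted p under 0.05. CPM are TMM-scaled, fold changes are log2, and intervals are 95%. Library depth was 21.7 to 27.6 M reads and the common biological CV 5.86%. The pipeline was tested on simulated data.

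Members and gene lists were chosen with earlier results of these data known. Named were TRAM2, the 12 highest members, the members and genes on either side of the limit, members past the test, up to 4 members per list by p in the mean of both sgRNAs, and their coding partners. Correlations with TRAM2 are not given because the control and knockout libraries fall into separate clusters. Alternatives were DESeq2 1.42.0, its size factors, other filters, transcript length and GC offsets, a replicate block, TPM membership and leaving out each library.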

Additional observations from a re-analysis of the deposited data

Results flagged for a closer look

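ENSG00000283633 and LNCOG differed between the sgRNAs by a direct test of TRAM2-KO2 against TRAM2-KO1. ENSG00000283633 was higher in TRAM2-KO2 by 0.27 on the log2 scale (edgeR, adjusted p = 0.022), with all 3 TRAM2-KO2 libraries above all 3 of TRAM2-KO1. The difference was past the threshold in 12 of 17 alternatives (adjusted p 0.00153 to 0.105). It was lost without TRAM2-KO1 B, without each TRAM2-KO2 library in turn and with transcript length offsets. LNCOG had a log2 difference of -0.26 (edgeR, adjusted p = 0.0489), with all 3 TRAM2-KO2 libraries below those of TRAM2-KO1, and was past the threshold in 7 of 17 alternatives (adjusted p 0.0238 to 0.218). Groups of 3 libraries were too small for a search for single outlying libraries.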

How the results depend on the processing

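The number of members past the test was small under each alternative and changed with most of them. In TRAM2-KO1, where it was 0, it was 2 with DESeq2, 3 without the filter on low counts, 1 with genes of at least 5 CPM and 4 with the GC trend removed. In TRAM2-KO2, where it was 4, it was 1 with transcript length offsets and 9 with the GC trend removed. For the mean of both sgRNAs, where it was 2, it was 4 without the filter, 4 with genes of at least 5 CPM, 0 with length offsets and 5 with the GC trend removed. Between the sgRNAs, where it was 2, it was 4 with DESeq2, 4 without the filter, 0 with length offsets and 4 with the GC trend removed. The cause was not tested. Leaving out 1 library gave 0 to 5 in TRAM2-KO1, 1 to 7 in TRAM2-KO2, 0 to 6 for the mean of both and 0 to 9 between the sgRNAs. A setting that left a group with 2 libraries shared the spread of the others. Members ranked by TPM, of which 99 were tested, gave 0, 3, 2 and 3.

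Whether the letters pair the libraries could not be settled with 3 libraries per group. Deviations from group means correlated at -0.088 to 0.107 between same-letter libraries and at -0.155 to 0.129 between libraries of different letters. With a replicate block the counts were 0 in TRAM2-KO1, 5 in TRAM2-KO2, 2 for the mean of both and 3 between the sgRNAs, and with the replicate block and the GC trend removed they were 4, 10, 7 and 6.

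The rise of ENSG00000283633 in TRAM2-KO2 passed in all 17 alternatives (log2 fold change 0.29 to 0.39, adjusted p 8.67e-05 to 0.041), that of CASC19 in 12 (0.08 to 0.28, adjusted p 0.00605 to 0.955), and the falls of GTF2IP1 and OIP5-AS1 in 8 (-0.41 to -0.21) and 7 (-0.16 to -0.07). The direction of MALAT1 turned: with length offsets it was -0.053 in TRAM2-KO1 and -0.11 in TRAM2-KO2, and in TRAM2-KO2 it ranged over the fits without 1 library from -0.0753 (without control A) to 0.27 (without control C), with -0.0657 without control B. The median half-width of the members' 95% intervals was 0.15 on the log2 scale, which limits the precision of a typical member at this depth and number of libraries.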
